A study of Ovis aries with 18 samples.

Results

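Testis gene expression was described in the 9 lambs of ewes fed the control diet, divided by how strongly they expressed ADAM11. The lambs were chosen by the measured level of this gene (ENSOARG00000008974), taken as CPM, its count scaled to the total count of the lamb. Levels above 300 CPM placed 5 lambs in a high ADAM11 class (H06, H20, H22, H29 and H37), and levels of 300 CPM or less placed 4 lambs in a low ADAM11 class (H31, H32, H39 and H44). These 9 lambs are 9 of the 18 in the series. The other 9 came from ewes fed a gossypol-rich cottonseed diet and were not used to set the classes. All 18 were male Santa Ines lambs, the RNA came from testicles removed at 60 days of age, and 1 library was made per lamb after capture of poly-A RNA. The dams received their diet from conception until the testicles were removed, so the control lambs shared a maternal diet based on corn and soybean, and the gossypol lambs met gossypol, a phenolic compound of cotton seeds, through the dam. Nothing in the labels separates the high from the low control lambs apart from their names.

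The immature testis is built of seminiferous cords, in which Sertoli cells surround early germ cells, with Leydig cells, which make testosterone, lying between the cords. As puberty approaches, germ cells enter meiosis and large sets of genes that are silent in most other tissues are switched on. ADAM11 is a membrane protein of the ADAM family, named for its disintegrin and metalloprotease domains. The family is known for roles in cell adhesion and in gamete biology. ADAM11 itself lacks the active site of a working protease.

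The files held counts for 29589 IDs. Ensembl genes account for 22758 of them, and 6831 are assembled loci whose names begin with XLOC. They carry no gene symbols. ADAM11 and 20 other IDs could be given a symbol, each paired with the ID by eye through the labelled points of the study's volcano plot, so every symbol below is an assignment of that kind, and that of OC90 is less certain than the others. The study had picked these 20 genes for their difference between the diets in lambs that include the control lambs described here, so neither their number nor their direction is independent of these libraries. Markers of Sertoli, Leydig, germ and blood cells were not analysed here for want of symbols, and the tissue label was therefore not checked against them. In whole tissue, fewer cells of a type and less RNA per cell cannot be told apart, and this holds for every difference below.

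ADAM11 varied widely among lambs on the same maternal diet. In CPM of the total count, the high class had 1379.9 in H22, 1359 in H29, 1012 in H20, 941 in H06 and 516 in H37. The low class had 144 in H32, 131 in H31, 102 in H39 and 38.3 in H44. The lambs nearest to the limit were H37 above it and H32 below it, and their levels stood 3.58-fold apart, so no lamb lay close to 300 CPM. After TMM normalization the mean was 1063 ± 381 CPM (SD, n = 5) in the high class and 106 ± 53.1 CPM (SD, n = 4) in the low class. These values chose the classes and are given with no test. None of the gossypol lambs reached the limit. They ran from 16.2 CPM in H41 to 196 CPM in H01, with a median of 38.2 CPM.

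**Figure D1:**
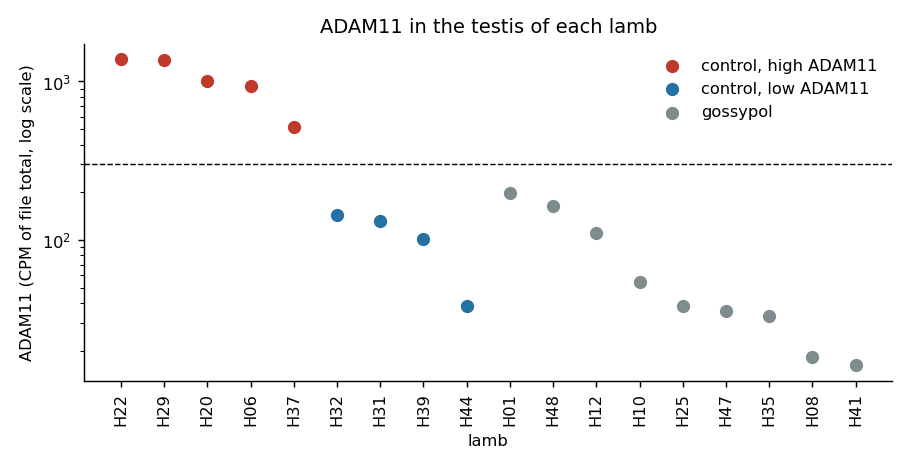
ADAM11 in each of the 18 lambs, as CPM of the total count on a log scale; red points are control lambs of the high class, blue points control lambs of the low class, grey points gossypol lambs, and the dashed line marks 300 CPM. The 5 high lambs sit between 516 and 1379.9 CPM, the 4 low lambs between 38.3 and 144 CPM and the 9 gossypol lambs between 16.2 and 196 CPM.

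Sequencing depth overlapped between the classes. The total count ran from 15602983 to 22334428 in the high class (median 19329870) and from 14468612 to 19616625 in the low class (median 16881387). In gossypol lambs it ran from 15240624 to 20660132. Within each diet, no pair of libraries differed by as little as sampling noise would allow. The lowest chi-square per degree of freedom was 17.7 among control lambs, for H20 and H22, and 11.4 among gossypol lambs, for H25 and H35. Among measures of the libraries, the share of counts in the 10 most abundant IDs ran from 6.71% to 8.09% in the high class and from 4.62% in H44 to 8.82% in the low class. The number of IDs with at least 1 count was 24119 to 25354 in the high class, and in the low class 24820 to 25003 in H31, H32 and H39 but 26207 in H44.

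H44 stood apart from the other control lambs in several ways, and H37 lay between the classes in many genes. H44 had the lowest ADAM11, the lowest share of counts in its 10 most abundant IDs, the most IDs with a count and the highest TMM scaling factor of the 9 lambs, 1.17. The counts of IDs are therefore given with and without these lambs, as are several of the differences.

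The division by ADAM11 followed the largest axis of variation among the control lambs. ADAM11 was left out of everything that follows, and principal components were computed on log2 CPM. The first component held 50.9% of the variance and the second 13.9%. On the first component, H29 scored 61.7, H22 57.2, H20 50.6, H06 27.6 and H37 25.2. The low lambs scored -48.5 (H31), -54.9 (H32), -58.8 (H39) and -60.2 (H44). The classes did not overlap on this component, H06 and H37 were the high lambs nearest to the low class, and the low lambs lay close together. On the second component H44 had the highest score, 53.1, and H31 the lowest, -35.96, so the spread within the low class lay mainly there.

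**Figure D2:**
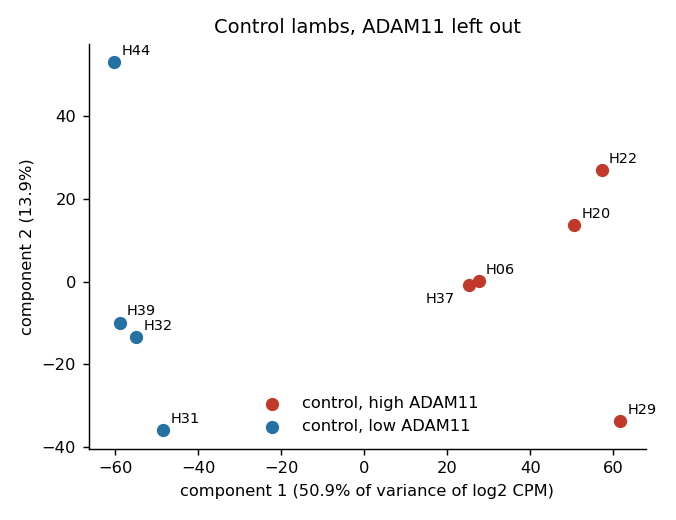
Scores of the 9 control lambs on the first (50.9% of the variance of log2 CPM) and second (13.9%) principal components, ADAM11 left out, with red points for the high and blue points for the low class. The classes lie on opposite sides of the first component, with H06 (27.6) and H37 (25.2) nearest to the low lambs, and H44 stands highest on the second (53.1).

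Of 18773 IDs with enough counts to be fitted, 837 (4.46%) were higher in the high class and 1183 (6.3%) were lower, where an ID was counted if no high lamb overlapped with any low lamb and the fitted difference was at least 2-fold. Without the limit on the fold, 2478 IDs (13.2%) were higher without overlap and 2398 (12.8%) were lower. These counts describe 9 lambs that were divided by a gene of the same libraries, and no p-value is attached to them. Without H37 there were 942 higher and 1421 lower IDs, and without H44 there were 1000 and 1308.

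The 837 higher IDs were annotated genes about as often as all fitted IDs. Assembled loci made up 139 (16.6%) of them, against 17.6% of all fitted IDs. Their median log2 difference was 1.35, against -0.03 over all fitted IDs, and 172 were at least 4-fold and 51 at least 8-fold higher. The median of their mean level over the 9 control lambs was 21.8 CPM, against 14.4 CPM over all fitted IDs. Over all fitted IDs, 397 differed at least 4-fold and 89 at least 8-fold, in either direction. In 62 of the higher IDs every low lamb had fewer than 10 counts, against 112 of all fitted IDs. Those 62 could not have passed the filter on counts through the low class alone. The 837 higher IDs represented 814 distinct count profiles, since some IDs share all their counts with another ID.

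The 1183 lower IDs had fewer counts and included more assembled loci. Their median log2 difference was -1.41 and the median of their mean level was 3.28 CPM, which like all CPM here is not scaled for gene length. At least a 4-fold difference was seen in 176 and at least 8-fold in 26. In 81 of the lower IDs every high lamb had fewer than 10 counts, against 88 of all fitted IDs. Those 81 could not have passed the filter on counts through the high class alone. Assembled loci made up 278 (23.5%) of the 1183 lower IDs. The share of all counts that fell on assembled loci ran from 1.96% to 2.18% in the high class and from 2.16% to 2.76% in the low class, so that the lowest low lamb lay within the range of the high lambs. The part of this share in the lower list was not tested.

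Among the 20 genes with a symbol, 19 were fitted. The difference was above 0 in 13, of which 11 separated the classes without overlap and by at least 2-fold, against 4.46% of all IDs, and it was below 0 in 6, of which 4 did so, against 6.3%. As these genes were selected on lambs that include the control lambs, nothing is read from the comparison with all IDs. OC90, which encodes a protein of the inner ear crystals, had 3 to 12 counts per control lamb and was not fitted. In the 13 higher genes H22 was the highest lamb in 11, H37 the lowest of the high lambs in 9, and H44 the lowest of all 9 lambs in 9.

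The 3 cancer-testis antigens, proteins normally made in the testis and otherwise found in tumours, separated the classes. FATE1 (ENSOARG00000008619) encodes a membrane protein found where the endoplasmic reticulum meets mitochondria. Its TMM-normalized level was 739 CPM in H06, 834 in H20, 1288 in H22, 1039 in H29 and 284 in H37, against 211 in H31, 161 in H32, 73.6 in H39 and 50.4 in H44. The log2 difference was 2.75 (standard error 0.46), or 2.97 without H37 and 2.49 without H44, no lamb of the high class fell to the level of the low class, and H37 lay nearer to H31 than to any other high lamb.

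MAGEA10 (ENSOARG00000008422) and MAGEB18 (ENSOARG00000018216) belong to the MAGE family, many of whose members act with ubiquitin ligases. MAGEA10 had 64.8 CPM in H06, 39.97 in H20, 154 in H22, 87.4 in H29 and only 5.74 in H37, while the low lambs H31, H32, H39 and H44 had 1.89, 1.98, 2.14 and 2.92. The classes were separate with a log2 difference of 4.96 (standard error 0.71), or 5.26 without H37, and H37 was far closer to the low lambs than to the other high lambs. MAGEB18 was more even, with 25.2 CPM in H06, 26.1 in H20, 46.2 in H22, 20.4 in H29 and 13.4 in H37, against 2.89, 1.38, 2.62 and 1.87 in the low lambs in the same order. Here H37 stood well clear of the low class, and the log2 difference was 3.58 (standard error 0.35).

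CST9L (ENSOARG00000006146), a testis member of the cystatin family of cysteine protease inhibitors, had 123 CPM in H06, 157 in H20, 447 in H22, 225 in H29 and 95.8 in H37. In the low class it had 14.4 CPM in H31, 11.01 in H32, 8.76 in H39 and 3.74 in H44. All high lambs were thus several-fold above all low lambs, with a log2 difference of 4.48 (standard error 0.50), or 4.20 without H44.

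KIAA1210 (ENSOARG00000016447) encodes a protein of the acrosome, the vesicle at the sperm head. Its level was 89.6 CPM in H06, 138 in H20, 243 in H22, 235 in H29 and 34.1 in H37, against 9.27, 6.199, 8.56 and 4.70 CPM in H31, H32, H39 and H44, a log2 difference of 4.37 (standard error 0.51), or 4.62 without H37. PRND (ENSOARG00000004683), which encodes the prion-like protein Doppel needed for male fertility in mice, was highest in H20. It had 36.2 CPM in H06, 56.6 in H20, 36.6 in H22, 22.8 in H29 and 10.0 in H37, against 5.26, 2.84, 4.14 and 2.31 CPM in the low lambs, with a log2 difference of 3.16 (standard error 0.43). In both genes the classes were separate and H37 was the lowest of the high lambs.

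VSIG1 (ENSOARG00000018478), an adhesion molecule with immunoglobulin domains made in stomach and testis, had 33.6 CPM in H06, 6.47 in H20, 137 in H22, 13.2 in H29 and 1.17 in H37, against 0.709, 1.19, 1.86 and 1.48 CPM in H31, H32, H39 and H44. H37 thus lay within the low class, so that VSIG1 overlapped, and the mean of the high class rested largely on H22. Its log2 difference was 4.87 (standard error 1.10), and 3.37 without H22. Without H37 the classes did not overlap, and it was 5.18.

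SLC4A5 (ENSOARG00000012369), a sodium bicarbonate cotransporter that takes part in the control of pH, had the largest fitted difference of the 19 genes, with a log2 value of 5.35 (standard error 0.65), or 5.63 without H37. It had 37.01 CPM in H06, 49.5 in H20, 102 in H22, 93.0 in H29 and 7.93 in H37, against 1.48, 0.725, 2.14 and 1.35 CPM in H31, H32, H39 and H44. The classes did not overlap, although H37 was far below the other high lambs.

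LRRC8B (ENSOARG00000015564), a subunit of the anion channel that opens when cells swell, had the smallest pooled spread within the classes of the 19 fitted genes with a symbol, with an SD of 0.229 on the log2 scale. It ran from 35.8 CPM in H06 to 51.7 in H22 in the high class, with 41.6 in H37, and from 11.3 CPM in H44 to 16.4 in H32 in the low class. The log2 difference was 1.77 (standard error 0.16), and H37 lay within the range of the other high lambs.

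MAP3K15 (ENSOARG00000014746), a kinase at the head of a mitogen-activated protein kinase cascade, had 26.4 CPM in H06, 33.9 in H20, 66.1 in H22, 64.7 in H29 and 55.1 in H37, against 5.01 to 8.68 CPM in the low class. The log2 difference was 2.83 (standard error 0.29), and H06, not H37, was the lowest high lamb. FAM84A (ENSOARG00000019413) ran from 121 to 171 CPM in H06, H20, H22 and H29 but had 47.4 CPM in H37, against 20.2 to 26.8 CPM in the low class, a log2 difference of 2.51 (standard error 0.30), or 2.72 without H37.

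SERTAD4 (ENSOARG00000012256) had 16.3 CPM in H37 but only 4.64 CPM in H06, within the low class, which ran from 2.74 to 5.94 CPM. The classes overlapped, and the log2 difference was 1.61 (standard error 0.37). The ID paired with CYP4F21 (ENSOARG00000001217), a cytochrome P450 of the family that adds hydroxyl groups to fatty acids and prostaglandins, shares every count with 3 other IDs, so its values belong to the set of 4. They ran from 54.6 to 92.3 CPM in the high class and from 18.2 CPM in H44 to 35.7 in H31 in the low class, without overlap, and the log2 difference was 1.21 (standard error 0.22), or 1.04 without H44.

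The 6 genes below 0 had log2 differences from -1.51 to -0.77 and, except for CDH23, few counts, from 4 to 164 per lamb. CDH23 (ENSOARG00000006661), a calcium-dependent cadherin known from the hair cells of the ear, had 18.6 CPM in H06, 18.0 in H20, 15.9 in H22, 17.5 in H29 and 18.2 in H37, a narrow range, against 30.8 in H31, 25.5 in H32, 47.4 in H39 and 41.7 in H44. The classes were separate, the spread lay in the low class, and the log2 difference was -1.04 (standard error 0.17). It was under 2-fold without H39, at -0.89, and without H44, at -0.97.

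ERBB3 (ENSOARG00000010448), a receptor that binds neuregulins and signals through its partners, had 1.63 to 2.95 CPM in the high class against 4.31 in H31, 3.43 in H32, 7.18 in H39 and 7.14 in H44. CACNG4 (ENSOARG00000015817), an auxiliary subunit of calcium channels and glutamate receptors, had 1.23 to 1.75 CPM against 3.54, 5.80, 4.14 and 3.74 CPM in the low lambs in that order. Neither gene overlapped between classes, and the log2 differences were -1.41 (standard error 0.28) and -1.51 (standard error 0.24).

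SLC47A1 (ENSOARG00000018143), which exports organic cations and drugs from cells, had 0.568 to 1.26 CPM in the high class and 1.38 to 3.13 CPM in the low class, with 10 to 72 counts per lamb. Its log2 difference of -1.16 (standard error 0.34) was -0.81 without H44, the highest lamb. GFRA3 (ENSOARG00000016086), a receptor for the growth factor artemin, and SMOC2 (ENSOARG00000005022), a secreted calcium-binding protein of the matrix, overlapped between classes. GFRA3 had a log2 difference of -0.77 (standard error 0.29), or -0.51 without H44. In SMOC2 H44 had 6.05 CPM and the other low lambs 0.857 to 1.52 CPM, against 0.203 to 2.56 CPM in the high class, and the log2 difference of -1.14 (standard error 0.62) was -0.14 without H44 and -0.87 without H37.

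**Figure D3:**
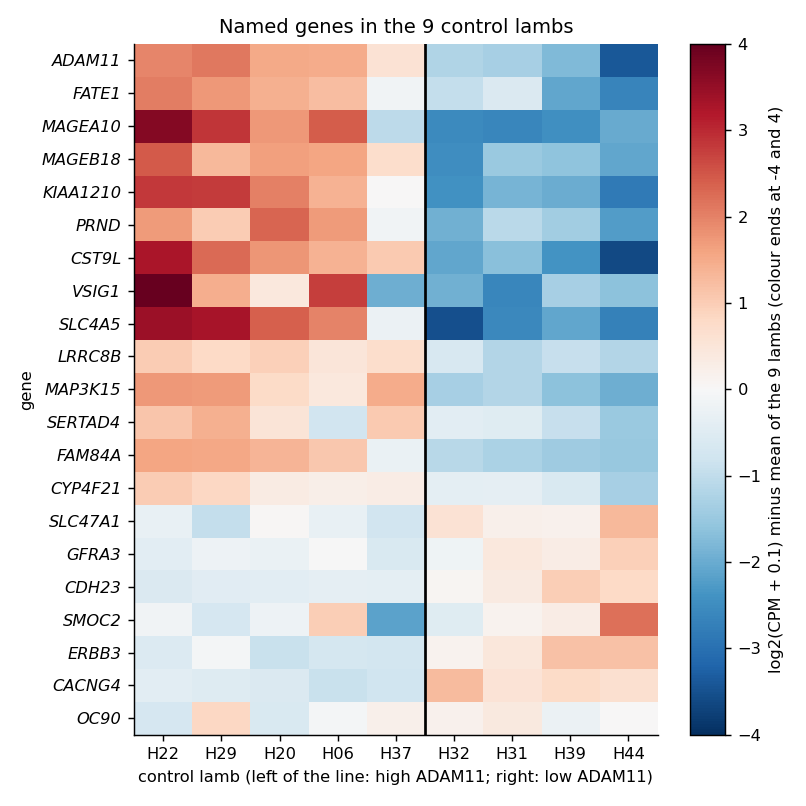
Level of ADAM11 and the 20 other genes with a symbol in the 9 control lambs, as log2(CPM + 0.1) minus the mean of the 9 lambs, red above and blue below that mean; high lambs stand left of the line and low lambs right of it. From FATE1 down to CYP4F21 the high lambs are mostly red, with H37 pale or blue in FATE1, MAGEA10, KIAA1210, PRND, VSIG1, SLC4A5 and FAM84A, and from SLC47A1 down to CACNG4 the low lambs are mostly red.

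The IDs that differed most carry no symbol. Among those with a mean of at least 1 CPM, ENSOARG00000026052 had 102 counts in H06, 40 in H20, 241 in H22, 175 in H29 and 4 in H37, and 1 count in all 4 low lambs together. ENSOARG00000009817 had 969, 741, 3091, 588 and 139 counts in the high lambs in that order, against 3, 3, 0 and 10 in H31, H32, H39 and H44. Both were thus near the limit of detection in the low class, and the fitted log2 difference of ENSOARG00000009817 was 7.88 (standard error 0.90), or 8.16 without H37 and 8.66 without H44.

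At the other end were 2 assembled loci. XLOC_027478 had at most 2 counts in any high lamb and 48 in H31, 25 in H32, 31 in H39 and 139 in H44, a log2 difference of -5.52 (standard error 0.56), or -4.98 without H44. XLOC_005413 had 1 to 4 counts in H06, H20, H22 and H29, 36 in H37, and 176, 111, 245 and 789 in H31, H32, H39 and H44, a log2 difference of -5.11 (standard error 0.70), or -6.81 without H37 and -4.52 without H44. H37 was again between the other high lambs and the low class in this locus.

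Likeness to ADAM11 was measured over the control lambs. Pearson r of log2 CPM with ADAM11 over the 9 control lambs, which share the same libraries and fall into separate classes, was at least 0.9 in 787 IDs and at most -0.9 in 617. It is given as a description only, since a difference between the classes alone gives a high r, and it does not show that a gene followed ADAM11 within a class. Without H37 the counts were 955 and 825, and without H44 they were 1217 and 1006. Of the 837 higher IDs 370 had an r of at least 0.9, and of the 1183 lower IDs 364 had an r of -0.9 or less. Among the 19 fitted genes with a symbol, 10 had an r of at least 0.9, against 787 of all 18773 fitted IDs. These genes were selected on lambs that include the control lambs, so nothing is read from that count. The most alike were CST9L (r = 0.98), FATE1 (r = 0.97) and CYP4F21 (r = 0.97), followed by KIAA1210 (r = 0.96), FAM84A (r = 0.95), LRRC8B (r = 0.94), MAP3K15 (r = 0.93), MAGEB18 (r = 0.93), PRND (r = 0.92) and SLC4A5 (r = 0.92). CST9L ranked 36 and FATE1 73 of all fitted IDs by this measure. In the other direction CDH23 (r = -0.92) was the most opposite of the genes with a symbol. MAGEA10 (r = 0.88) was at 0.92 without H37 and 0.96 without H44. The r of SMOC2, -0.50, was -0.09 without H44.

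H37 took different positions in different genes. On the log2 scale, with the median of the low lambs at 0% and the median of the other 4 high lambs at 100%, H37 stood at 64.3% for ADAM11. It was at -4.32% for VSIG1, 28.04% for MAGEA10, 38.1% for FAM84A, 43.9% for SLC4A5, 44.7% for FATE1, 45.1% for PRND and 47.97% for KIAA1210. In contrast it was at 73.2% for MAGEB18, 75.2% for CYP4F21, 77.0% for CST9L, 90.6% for LRRC8B and above 100% for MAP3K15 and SERTAD4. Over the 942 IDs called higher without H37, its median position was 75.9% (quartiles 54.9% and 93.6%), and 196 IDs lay under 50%. Over the 1421 lower IDs the median was 73.9%, with 342 under 50%. H37 was thus nearer to the other high lambs in most of these IDs, but among the 13 higher genes with a symbol it was under 50% in 7. These positions were examined after the values had been seen.

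The 9 gossypol lambs, which the division did not use, allowed a test of whether the same IDs moved with ADAM11 elsewhere. The slope of each ID on log2 CPM of ADAM11, that is, the log2 change per doubling of ADAM11, was tested across these lambs with edgeR's quasi-likelihood test and Benjamini-Hochberg adjustment over all 20100 tested IDs. ADAM11 was measured in the same libraries as the IDs. After TMM normalization it had 219 CPM in H01, 174 in H48, 105 in H12 and 55.1 in H10, while H25, H47, H35, H08 and H41 had 16.6 to 39.5 CPM. TMM was run within each diet, so levels were compared between diets in CPM of the total count. On that scale all gossypol lambs lay below the high class, and H01 (196 CPM) and H48 (165 CPM) lay above H32, the highest low control lamb (144 CPM).

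At an FDR of 5%, 132 IDs (0.657%) rose and 105 (0.522%) fell with ADAM11, the lowest adjusted p was 5.55e-05 by edgeR's quasi-likelihood test, and 2457 IDs had an unadjusted p under 0.05. Some IDs share all their counts with another ID, and with identical IDs collapsed 122 rose and 95 fell. Of the 837 IDs higher in high ADAM11 control lambs 782 were tested, and 82 of them (10.5%) rose and 0 fell. Of the 1183 lower IDs 1178 were tested, and 43 (3.65%) fell and 0 rose. The other 55 higher and 5 lower IDs did not pass the filter on counts in gossypol lambs, so these shares leave them out. The 82 shared IDs were 62.1% of all that rose, while the higher list held 4.46% of all IDs fitted in control lambs. The 43 were 40.95% of all that fell, while the lower list held 6.3% of the fitted IDs. The counts in gossypol lambs changed with single lambs by more than 1.5 times. Without H48, 51 IDs rose, 36 of them from the higher list, and 29 fell, 17 of them from the lower list. Without H08 the same counts were 52, 42, 38 and 19, and without H35 they were 63, 48, 59 and 32. Larger counts came without H01 (243, 132, 167 and 69) and without H41 (293, 119, 285 and 97). The number that fell was also lower without H10 (66), H12 (55, of which 27 from the lower list), H25 (69) and H47 (69). With both H01 and H48, the lambs with the highest ADAM11, left out, 8 rose, all 8 from the higher list, and 4 fell, 2 of them from the lower list. No other pair was left out. With the log2 total count as a covariate, added after seeing the data, 14 rose and 9 fell, 12 and 7 of them from the lists. The DESeq2 Wald test gave 397 rising and 428 falling IDs, 170 and 136 of them from the lists.

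Directions were shared more widely than calls. The slope was above 0 in 724 of the 782 higher IDs (92.6%), against 50.9% of all tested IDs, with a median of 0.24 against 0.00. It was below 0 in 1024 of the 1178 lower IDs (86.9%), against 49.1%, with a median of -0.17. With 1 gossypol lamb left out at a time, the first share ran from 83.7% to 94.2% and the second from 75.1% to 89.2%, in each case lowest without H48. Without both H01 and H48 they were 86.8% and 77.2%. IDs of a list are not independent of each other, and the shares are given with no test. Seen from the gossypol side, 124 of the 131 rising IDs that were fitted in control lambs had a higher level in the high class, against 47.8% of all fitted IDs, with a median log2 difference of 1.34. Of 100 falling IDs 98 had a lower one, against 52.2%, with a median of -1.14. Across 18530 IDs the control difference and the gossypol slope, which come from different lambs, had a Pearson r of 0.567. This is a correlation across genes, which are not independent replicates.

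FATE1 and CYP4F21 had the lowest adjusted p-values of the genes with a symbol in gossypol lambs. The level of FATE1 ran from 19.5 CPM in H08 to 224 CPM in H01, with a median of 49.0 CPM, and H48 had 216 CPM. The slope was 0.72 (standard error 0.12, adjusted p = 0.0117 by edgeR's quasi-likelihood test), and it held at an FDR of 5% in 12 of 15 alternatives. It did not hold with the log2 total count as a covariate (edgeR adjusted p = 0.117), without H48 (adjusted p = 0.0562) or without both H01 and H48, where it was 0.41 (adjusted p = 0.434). CYP4F21 had a median level of 15.6 CPM, between 7.66 and 27.9 CPM, and a slope of 0.49 (standard error 0.09, adjusted p = 0.0180 by the same edgeR test), which held in 11 of 15. It did not hold with the covariate (edgeR adjusted p = 0.152) or without H08 (adjusted p = 0.102), H35 (adjusted p = 0.0536) or H48 (adjusted p = 0.0532), and without both H01 and H48 it was 0.75 (adjusted p = 0.0489). In both genes the lambs with the highest ADAM11, H01, H48 and H12, also held the 3 highest levels.

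MAGEB18, CST9L and CDH23 passed the threshold narrowly. The slope of MAGEB18 was 0.62 (standard error 0.14, edgeR adjusted p = 0.0475), on levels of 0.876 to 6.61 CPM with a median of 1.67 CPM. CST9L had a slope of 0.73 (standard error 0.16, edgeR adjusted p = 0.0488). Its levels were 43.6 CPM in H01, 33.3 in H48 and 3.45 to 8.43 CPM in the other 7 lambs, so its slope rested on H01 and H48, and without them it was -0.10. CDH23 fell with a slope of -0.47 (standard error 0.10, edgeR adjusted p = 0.0456), from levels of 23.1 CPM in H01 to 115 CPM in H47 with a median of 72.7 CPM. MAGEB18 and CST9L each held in 4 of 15 alternatives and CDH23 in 6. Without both H01 and H48 the slope of MAGEB18 was 0.38 (edgeR adjusted p = 0.510) and that of CDH23 -0.52 (adjusted p = 0.233).

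The other genes with a symbol did not pass the threshold in gossypol lambs. In all, 11 of the 13 genes that were higher in the high class had a slope above 0, against 50.9% of all tested IDs, and 4 of them passed, against 0.657%. All 6 lower genes had a slope below 0, against 49.1%, and 1 of them passed, against 0.522%. The genes were chosen on lambs that include the gossypol lambs, and nothing is read from these shares. KIAA1210 had a slope of 0.65 (edgeR adjusted p = 0.133), LRRC8B 0.31 (adjusted p = 0.136), FAM84A 0.36 (adjusted p = 0.202) and MAP3K15 0.36 (adjusted p = 0.214). Without H01, KIAA1210 (slope 0.83, edgeR adjusted p = 0.0295) and FAM84A (slope 0.52, adjusted p = 0.0295) passed. DESeq2's Wald test on all 9 lambs called KIAA1210 (adjusted p = 0.0130), LRRC8B (adjusted p = 0.0406) and CACNG4 (adjusted p = 0.0146). Among the genes with the largest differences in control lambs, SLC4A5 had a slope of 0.13 (edgeR adjusted p = 0.767), MAGEA10 of -0.15 (adjusted p = 0.677) and VSIG1 of -0.01 (adjusted p = 0.983). Among the gossypol lambs these 3 genes had 1.10 to 2.48 CPM (SLC4A5), 2.08 to 6.04 CPM (MAGEA10) and 0.715 to 1.98 CPM (VSIG1). Whether their slopes differ from that of FATE1 was not tested. In the opposite direction, SMOC2 had a slope of -0.66 (edgeR adjusted p = 0.148) and CACNG4 of -0.58 (adjusted p = 0.150). Without H41 the slope of SMOC2 was -0.44 and that of MAGEA10 -0.05, and neither passed. The slope of SLC4A5 ran from 0.080 without H12 to 0.20 without H01 and did not pass in either case. Of the named IDs without a symbol, ENSOARG00000026052 had at most 0.0565 CPM in gossypol lambs and was not tested. ENSOARG00000009817 had a slope of 0.43 (edgeR adjusted p = 0.528). XLOC_027478 had a slope of -0.68 (edgeR adjusted p = 0.136) and XLOC_005413 of -0.95 (adjusted p = 0.270), so none of those tested passed.

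**Figure D4:**
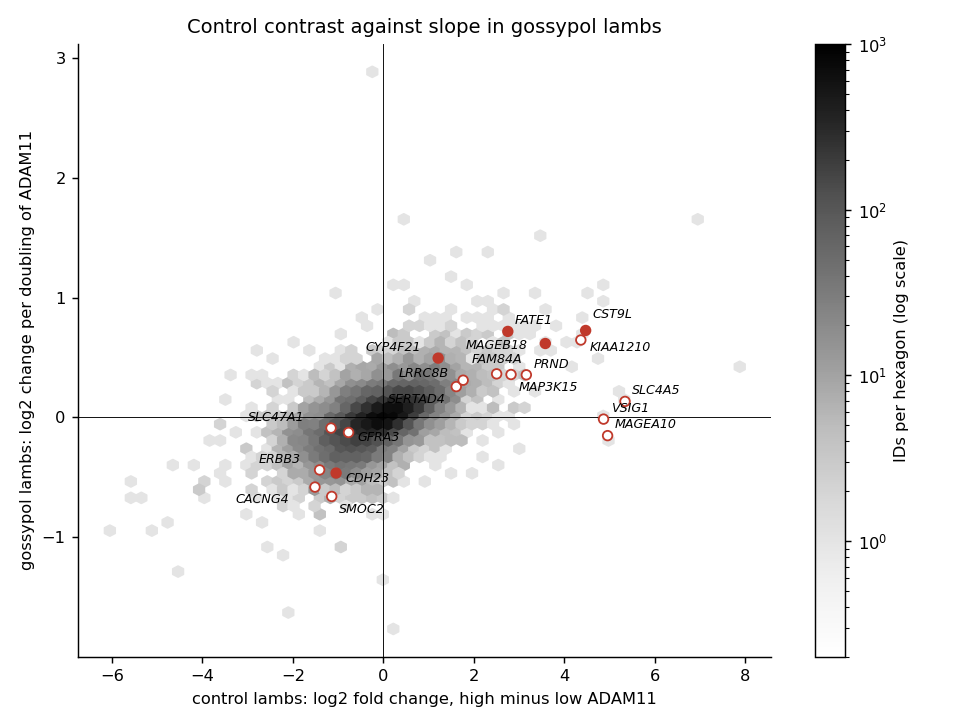
Log2 difference between high and low ADAM11 control lambs (horizontal) against the log2 change per doubling of ADAM11 in gossypol lambs (vertical) for 18530 IDs, as hexagons shaded by the number of IDs on a log scale; circles are the genes with a symbol, filled where the slope passed an FDR of 5%. The filled circles are FATE1, CST9L, MAGEB18 and CYP4F21, above 0 on both axes, and CDH23, below 0 on both, while SLC4A5, MAGEA10 and VSIG1 lie far to the right with slopes near 0.

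The called IDs took up a sizeable part of the RNA counted. The 837 higher IDs held 10.2% of all counts in H22 and in H29, 9.15% in H20, 7.85% in H06 and 7.69% in H37, a mean of 9.02% ± 1.22 (SD, n = 5). They held 3.95% in H31, 3.64% in H39, 3.35% in H32 and 2.54% in H44, a mean of 3.37% ± 0.606 (SD, n = 4). For the 1183 lower IDs the means were 1.59% ± 0.269 (SD, n = 5) and 4.499% ± 0.220 (SD, n = 4). In control lambs these gaps follow from how the IDs were called. A single ID made up 10.1% of the higher sum in H44 and up to 38.98%, in H31, in the other control lambs. Without it the higher share was 5.57% to 7.88% in the high class and 2.28% to 2.41% in the low class.

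In gossypol lambs, where the lists were not made, the higher IDs held 4.84% of the counts in H48, 4.502% in H12 and 4.49% in H01, and 2.201% to 3.06% in the other 6. The lower IDs held 3.44% in H12, 3.64% in H48 and 3.70% in H01, and 4.96% to 6.03% in the other 6. The 3 gossypol lambs with the highest ADAM11 were thus the 3 with the highest share for the higher list and the 3 with the lowest share for the lower list. Without the most abundant ID the share of the higher list was 3.69% in H48, 3.44% in H12 and 2.71% in H01, against 1.58% to 2.17% in the other 6. Each of these 3 lambs stayed below the lowest lamb of the high class.

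**Figure D5:**
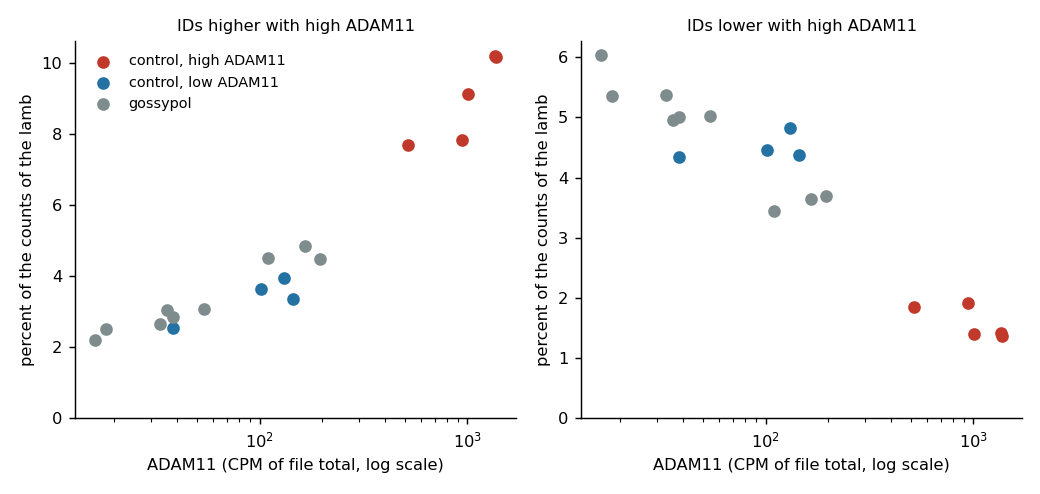
Percent of the counts of each lamb that fell on the 837 higher IDs (left) and the 1183 lower IDs (right) against ADAM11 in CPM of the total count on a log scale; red and blue points are high and low control lambs, in which the lists were made, and grey points are gossypol lambs. Among gossypol lambs the 3 with the highest ADAM11 hold 4.49% to 4.84% on the higher IDs and 3.44% to 3.70% on the lower IDs.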

How the data were processed

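Per the labels and the study's methods, single-end reads of poly-A testis RNA were trimmed with Trim Galore 0.4.4 and aligned to the Oar_v3.1 sheep genome with TopHat2 2.1.1. Transcripts were assembled with Cufflinks 2.2.1 and merged with the annotation. The authors deposited raw HTSeq counts per ID, whole numbers without normalization or filtering, 1 file per lamb. Whether counting used strand is not given in the sources used here, so overlapping and antisense genes are uncertain.

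Here IDs were filtered with filterByExpr (minimum count 10, minimum total 15), separately in control and gossypol lambs, and scaled by TMM in edgeR 4.0.16 (R 4.3.3), with a prior count of 2 for log2 CPM. Differences between classes are from the quasi-likelihood fit, with the size divided by the square root of F as standard error, and carry no test. The test of slopes across the 9 gossypol lambs is edgeR's quasi-likelihood test at an FDR of 5%. The named genes are all IDs with a symbol, and the 2 highest and 2 lowest called IDs without one at a mean of at least 1 CPM. The control lambs, the named genes and the call rules were chosen with earlier results of these data known. 1 gene named by the study is not reported here. Of 29589 IDs, 0 matched the RefSeq gene table, so planned marker lists could not be used. Both procedures were tried on simulated counts. Of 200 IDs given a 4-fold change between the classes 198 were recovered, with 8 other calls. Of 200 IDs given a slope of 1 in gossypol lambs 200 were recovered, with 11 other calls. The changed IDs were well counted and varied independently, so smaller changes, IDs with few counts and linked IDs were not covered. Alternatives used RLE, limma-voom 3.58.1 and DESeq2 1.42.0, other filters, and each lamb left out.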

Additional observations from a re-analysis of the deposited data

Results flagged for a closer look

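Within groups of 4 to 9 lambs, 81 sets of values (log2 CPM of the genes with a symbol and measures of the libraries, each within the high, low or gossypol lambs) were examined by Dixon's criterion for a lamb far from the others. It marked 3, where chance marks about 5%, or 4.0 of 81. In FAM84A, H37 had 47.4 CPM and the next lowest high lamb, H06, had 121 CPM, a gap of 0.731 of the range on the log2 scale (limit 0.71). In the number of IDs with a count, H44 had 26207 and the next highest low lamb, H31, had 25003 (0.868 of the range, limit 0.829). In the share of counts on assembled loci, gossypol lamb H41 had 3.25% and the next highest, H01, had 2.55% (0.637 of the range, limit 0.493).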

How the results depend on the processing

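No paired analysis was possible because the lambs are separate animals whose numbers are not shared between diets. A limit of 4-fold gave 172 higher and 176 lower IDs in the high class, and no limit gave 2478 and 2398. With each control lamb left out in turn, there were 779 to 1027 higher and 1155 to 1469 lower IDs. RLE, scaling by the file total, the DESeq2 fold, collapsed identical IDs and both other filters kept both counts within 1.5 times. None of the 247 alternative differences of the 19 fitted genes with a symbol changed sign. The 4 named IDs without a symbol were rerun only without H37 and without H44.

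The slopes in gossypol lambs depended more on the processing. The IDs that rose, those that fell, the higher IDs that rose and the lower IDs that fell numbered 397, 428, 170 and 136 by the DESeq2 Wald test, and 8, 4, 8 and 2 without H01 and H48, the lambs farthest from the median ADAM11. With the log2 total count as a covariate, an alternative chosen after seeing the data, they numbered 14, 9, 12 and 7, and the shares of the lists in the shared direction were 93.4% and 80.0%. With the rank of ADAM11 in place of its level, 69 fell. With each gossypol lamb left out in turn the same 4 counts ran from 51 to 293, from 29 to 285, from 36 to 132 and from 17 to 97. The cause was not tested. Of 300 alternative slopes of genes with a symbol, 252 kept direction and side of the threshold, 37 lost and 5 gained the call, and 6 changed sign. The slope of VSIG1 ran from -0.12 to 0.12 with 1 lamb left out. Its sign changed with ranks (0.0020), without H01 and H48 (0.16), without H41 (0.0021) and without H48 (0.12). Without H01 and H48 it also changed for CST9L (-0.10) and OC90 (0.0017). At this depth OC90 had 3 to 12 counts per control lamb and could not be fitted there.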
